A study of Homo sapiens with 9 samples.

Results

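MUC16, WFDC2, PAX8, MSLN, FOLR1, EPCAM, WT1, MUC1, CLDN3 and CLDN4 are genes used in the clinic or in pathology to mark high-grade serous ovarian carcinoma. They were selected by name from the deposited gene table, each name matched 1 row, and they make up 10 of the 58735 genes listed there. All 10 passed the filter on low counts that left 17023 genes for testing. Their RNA was compared between OVCAR3 cells that carried a scramble hairpin and OVCAR3 cells that carried 1 of 2 hairpins against GPX3, which encodes a secreted glutathione peroxidase that reduces peroxides.

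OVCAR3 is an established cell line derived from a human ovarian adenocarcinoma. RNA was sequenced after 72 h in culture from 3 replicates in each of 3 groups: the shRNA-scramble Control, given as WT in its genotype label, and shRNA#76-GPX3 and shRNA#78-GPX3, both given as GPX3 knock-down. These groups are called scramble, sh76 and sh78 below. A short hairpin RNA (shRNA) is processed by the cell into a guide that lowers matching mRNAs. All groups carried a hairpin, and no library from cells without one was analysed here. The labels name no vector and do not say whether the replicates came from separate transductions or cultures, or whether the cells were a pool or 1 clone, so the p-values measure the spread between these libraries, which may be technical. Because RNA was taken from whole cultures, fewer expressing cells and less RNA per expressing cell cannot be told apart.

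The 10 genes belong to a few functional classes. PAX8 and WT1 are transcription factors of the Müllerian (fallopian tube) and serous lineage, and pathologists stain for them to place a carcinoma of unknown origin in the ovary or tube. MUC16 carries the CA125 epitope and WFDC2 encodes HE4, both measured in serum, while MUC1 is the mucin that carries CA15-3. MSLN (mesothelin, a partner that binds MUC16), FOLR1 (the folate receptor alpha), EPCAM (an epithelial adhesion molecule) and the tight-junction proteins CLDN3 and CLDN4 lie at the cell surface, where several of them are targets of antibody-based drugs.

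Of these 10 genes, FOLR1 was lower with both hairpins and EPCAM was lower with sh78, while PAX8 and MUC1 differed between the hairpins. PAX8 fell with sh76 and not with sh78. MUC1 lay above scramble with sh76 and below it with sh78. For PAX8 and MUC1 the difference between the hairpins passed in all 18 alternative fits. Against scramble, PAX8 passed with sh76 in 13 of them, and MUC1 in 11 with sh76 and 7 with sh78. MUC16, WFDC2, MSLN, WT1, CLDN3 and CLDN4 passed the test in none of the 4 comparisons made, which set sh76, sh78 and the average of the pair against scramble, and sh78 against sh76. That test does not use the replicate number. With the replicate number as a block, MUC16 passed as higher and MSLN, CLDN3 and CLDN4 as lower with sh76. WFDC2 then passed as higher with sh78. In that fit 20.4% of all tested genes passed with sh76 and 19.9% with sh78.

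To show what lies upstream of the genes on which the comparison of the hairpins turned, and of the 2 neighbouring claudin genes, the 250 bases before the RefSeq start site are printed 5′ to 3′ along each gene's strand, on GRCh38.p14. Sequences were matched for 7 of the 10 genes, and FOLR1, EPCAM and MSLN were missing from the sequence table. MUC1 had 2 promoter entries, of which the first is printed and the other was not searched. Capitals mark GC boxes (GGGCGG on either strand, the core bound by SP-family factors) and TATA boxes (TATAAA on either strand). The PAX8 window is chr2:113278922-113279171 on the minus strand, that of MUC1 is chr1:155192916-155193165 on the minus strand, that of CLDN3 is chr7:73770271-73770520 on the minus strand and that of CLDN4 is chr7:73830746-73830995 on the plus strand.
PAX8: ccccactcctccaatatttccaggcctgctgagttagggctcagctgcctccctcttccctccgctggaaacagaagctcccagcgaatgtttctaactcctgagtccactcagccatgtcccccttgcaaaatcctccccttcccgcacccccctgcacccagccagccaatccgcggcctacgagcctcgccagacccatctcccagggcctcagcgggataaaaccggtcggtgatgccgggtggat
MUC1: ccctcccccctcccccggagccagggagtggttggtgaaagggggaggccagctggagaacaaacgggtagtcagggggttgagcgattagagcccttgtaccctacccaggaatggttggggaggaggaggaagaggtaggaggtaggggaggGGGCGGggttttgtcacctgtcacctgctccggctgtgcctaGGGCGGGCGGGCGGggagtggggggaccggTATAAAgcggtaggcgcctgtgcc
CLDN3: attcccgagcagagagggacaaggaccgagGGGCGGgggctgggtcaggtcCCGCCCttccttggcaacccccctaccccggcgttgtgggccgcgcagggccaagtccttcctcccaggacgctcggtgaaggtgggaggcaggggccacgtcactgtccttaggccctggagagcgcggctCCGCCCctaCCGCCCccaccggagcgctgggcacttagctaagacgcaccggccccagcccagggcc
CLDN4: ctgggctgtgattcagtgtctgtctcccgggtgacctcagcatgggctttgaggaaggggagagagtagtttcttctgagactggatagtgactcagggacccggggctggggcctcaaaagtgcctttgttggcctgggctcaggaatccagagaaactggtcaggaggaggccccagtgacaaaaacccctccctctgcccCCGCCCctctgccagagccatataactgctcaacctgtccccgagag
The MUC1 window held 4 GC boxes, of which 3 overlapped one another, and 1 TATA box that began 24 bases before the start. The CLDN3 window held 4 GC boxes and that of CLDN4 held 1, and neither held TATAAA. The CLDN4 window lies inside the GENCODE span of that gene (73799542 to 73832693), whose start differs from the RefSeq start used here. The PAX8 window also runs into the GENCODE span of its gene, which ends at 113278950. That of MUC1 meets the end of its span at base 155192916. No match to either motif lay in the PAX8 window. A GC box was found in 42.3% of all 27305 RefSeq windows of this length and TATAAA in 11.1%. These matches describe letters only, and no binding was measured.

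Counts per library summed to between 14652965 and 21327562, so even the least abundant of the 10 genes was read 364 times or more in every library. GPX3 itself (ENSG00000211445, chromosome 5, 151020438 to 151028993) was at 109 to 173 CPM (a gene's count scaled to a common library size) in scramble, 55.2 to 56.8 with sh76 and 28.3 to 35.3 with sh78. The targeted gene was therefore lower in every library labelled knock-down than in every scramble library, and lowest with sh78. The library sizes behind CPM were adjusted by edgeR's TMM method, and a gene is called changed where its Benjamini-Hochberg adjusted p over all 17023 genes, from edgeR's quasi-likelihood test, was under 0.05. The median log2 fold change over all tested genes was 0.0064 with sh76 and 0.0063 with sh78.

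Per unit of gene length, the 10 genes spanned a wide range of levels in scramble cells. On the deposited FPKM scale, which divides by gene length, CLDN3 stood highest at 349 ± 19.6 (SD, n = 3), followed by WFDC2 at 184 ± 36 and EPCAM at 125 ± 3.67. PAX8 was close to EPCAM at 121 ± 6.66, and the order of these neighbours is within their spread. CLDN4 at 82.8 ± 10.3 and MSLN at 64.8 ± 11.1 came next. FOLR1 was at 38.3 ± 3.43 and MUC16 at 35.3 ± 7.95, again not separated by their spread. WT1 was at 26.1 ± 1.49 FPKM, and MUC1 was lowest at 9.75 ± 1.02. Among the 13709 protein-coding genes tested, these levels placed CLDN3 at rank 66, WFDC2 at rank 148 and MUC1 at rank 4389. In the lowest and highest group means of the whole set, MUC1 with sh78 reached 6.74 ± 1.36 FPKM and CLDN3 in scramble 349.

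**Figure D1:**
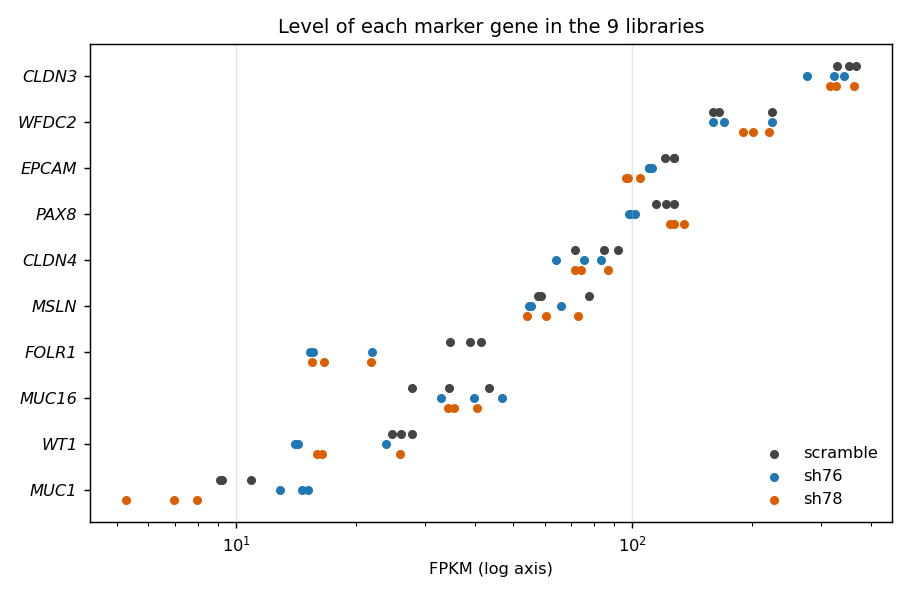
FPKM on a log axis for each of the 10 genes, with 1 point per library, 3 libraries per group, and colours for scramble, sh76 and sh78. CLDN3 and WFDC2 are at the top and MUC1 at the bottom. The FOLR1 points split scramble from both knockdown groups, which overlap, and the MUC1 points split all 3 groups.

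Markers of other cell types were summed beside the 10 genes. The members' summed level was 3870 to 4684 CPM in scramble, 3828 to 4450 with sh76 and 4004 to 4493 with sh78. Leukocyte markers (6 genes, 3 tested, none called) summed to 2.19 to 4.52 CPM over all libraries. Fibroblast markers (7 genes, 2 tested, none called) summed to 27.6 to 55.4 CPM, most of it COL1A1, a collagen chain. The replicate block called COL1A1 higher with sh76 (log2 0.23, adjusted p = 0.01368) and with sh78 (0.27, adjusted p = 0.004958). Endothelial markers (5 genes, 4 tested) summed to 18.4 to 20.4 CPM in scramble, 18.9 to 24.4 with sh76 and 23.7 to 32.2 with sh78, and 1 of them, the VEGF receptor KDR, was called higher with both hairpins (adjusted p = 0.03956 and 0.0008699), the first lost by limma on log2(FPKM + 1) (0.1188). Mesothelial markers (6 genes, 3 tested) bear on MSLN and WT1, which mesothelium also expresses. They summed to 127 to 159 CPM in scramble, 168 to 185 with sh76 and 130 to 143 with sh78. Most of that sum was the uroplakin UPK1B, called higher with sh76 (log2 fold change 0.45, adjusted p = 0.01395, and 0.0549 by limma on log2(FPKM + 1)). The mesothelial marker CALB2 averaged 0.37 CPM in scramble. LRRN4, another of these markers, was at 2.23 ± 1.25 CPM in scramble, 3.63 ± 1.03 with sh76 and 4.82 ± 0.939 with sh78 (SD, n = 3). It was not called with sh78 (edgeR adjusted p = 0.08286), but was by DESeq2 (0.02998), with the replicate block (0.03179) and without the replicate 1 libraries (0.0006807, and 0.00614 with sh76). No marker in these lists was at 0 in all 9 libraries. Markers of other ovarian tumour types (9 genes, 4 tested, none called by edgeR) summed to 26.9 to 44.7 CPM. At an unadjusted p under 0.05 the leukocyte list gave 0 and 1 genes for sh76 and sh78, the fibroblast list 0 and 0, and the tumour type list 3 and 1, while DESeq2 called, in these 3 lists, FOXL2 with sh78 (adjusted p = 0.02687). The replicate block called 3 and 1 genes of the tumour type list, FOXL2 with both hairpins, beside 20.4% and 19.9% of all tested genes. No share of all genes was worked out for the unadjusted counts. The part of these markers in the results was not tested.

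FOLR1 showed the largest change of the 10 genes against scramble. The gene (ENSG00000110195, chromosome 11, 72189558 to 72196323, plus strand) encodes the folate receptor alpha, a membrane-anchored protein that brings folate into the cell and the target of an approved antibody-drug conjugate. In the scramble libraries FOLR1 was at 57.5, 68.8 and 64.1 CPM (63.5 ± 5.67, SD, n = 3). With sh76 it was at 36.6, 25.5 and 25.9 CPM (29.3 ± 6.28). The sh78 libraries gave nearly the same values, 36.3, 25.7 and 27.7 CPM (29.9 ± 5.63). All 6 knockdown libraries lay below all 3 scramble libraries, and replicate 1 was the highest library in each knockdown group but the lowest in scramble. The log2 fold change was -1.12 with sh76 (SE 0.15, adjusted p = 0.002682) and -1.08 with sh78 (SE 0.16, adjusted p = 0.002388). FOLR1 RNA thus stood at 46% and 47.2% of its scramble level. For the mean of both hairpins it was -1.10 (adjusted p = 0.0007077). The hairpins themselves were not separated: sh78 against sh76 gave 0.04 with an approximate 95% interval of -0.31 to 0.38 (adjusted p = 0.948). These 2 comparisons share their scramble libraries and are not independent of each other.

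Ratios between libraries of the same replicate number ran from -0.65 in replicate 1 to -1.43 in replicate 2 for sh76, on the log2 scale. For sh78 they ran from -0.66 in replicate 1 to -1.42 in replicate 2. The fall in FOLR1 was thus smaller in the replicate 1 libraries for both hairpins. Without the 3 replicate 1 libraries, an alternative chosen after the data were seen, the log2 fold changes were -1.38 and -1.32. FOLR1 was called in each of the 18 alternatives for either hairpin.

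EPCAM, the epithelial cell adhesion molecule on which circulating tumour cells are captured, was called lower with sh78. The gene (ENSG00000119888, chromosome 2, 47345158 to 47387601, plus strand) was at 307, 323 and 321 CPM in scramble (317 ± 8.6, SD, n = 3). With sh76 its level was 280, 285 and 280 CPM (282 ± 3.05), and with sh78 it was 265, 244 and 248 CPM (252 ± 11.4). None of the 3 groups overlapped another, and the order was scramble, sh76, sh78. The log2 fold change was -0.33 with sh78 (SE 0.06, adjusted p = 0.003872), or 79.6% of scramble. With sh76 it was -0.17 (SE 0.06, adjusted p = 0.119), which did not pass. In the fit that treats the replicate number as a block, EPCAM was also called with sh76 (adjusted p = 0.00281) and in sh78 against sh76 (-0.16, adjusted p = 0.006625, against 0.1521 without the block). The mean of both hairpins gave -0.25 (adjusted p = 0.009016), and that call was lost without scramble replicate 2 (adjusted p = 0.05502).

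PAX8 separated the 2 hairpins. PAX8 (ENSG00000125618, chromosome 2, 113215997 to 113278950, minus strand) is a paired-box transcription factor of the Müllerian tract and kidney. Its scramble libraries were at 953, 908 and 847 CPM (902 ± 53.3, SD, n = 3). With sh76 PAX8 was at 740, 760 and 733 CPM (744 ± 14.1), below every scramble library. With sh78 it was at 1006, 924 and 950 CPM (960 ± 42.3), and this range overlapped scramble. The log2 fold change was -0.28 with sh76 (SE 0.06, adjusted p = 0.01963; 82.5% left) and 0.09 with sh78 (adjusted p = 0.5036, approximate 95% interval -0.04 to 0.22). Tested directly, sh78 exceeded sh76 by 0.37 on the log2 scale (SE 0.06, adjusted p = 0.003857), or 129% of the sh76 level.

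That direct difference was called in all 18 alternatives. The fall against scramble with sh76 was not: it lost its call without scramble replicate 1 (adjusted p = 0.05349), scramble replicate 2 (0.06614), or sh76 replicate 1 (0.05088), 2 (0.07065) or 3 (0.06933), while its log2 fold change stayed between -0.33 and -0.24 over the left-out libraries. The antisense gene PAX8-AS1 shares 685 of the 7400 exonic bases of PAX8. Libraries were non-directional, so reads in the shared bases cannot be given to 1 strand. PAX8-AS1 was at 73.6 ± 14.3 CPM in scramble, 65.4 ± 9.46 with sh76 and 89.2 ± 13.4 with sh78, and in sh78 against sh76 it was higher by 0.45 on the log2 scale, in the direction of PAX8. That difference was not called without the replicate block (adjusted p = 0.192) and was called with it (8.303e-08). Its counts, 994 to 1928 per library, compare with at least 11999 for PAX8.

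MUC1 moved in opposite directions with the 2 hairpins. MUC1 (ENSG00000185499, chromosome 1, 155185824 to 155192916, minus strand) is a membrane mucin with a signalling tail. In scramble it was at 51.9, 43.8 and 43 CPM (46.3 ± 4.94, SD, n = 3). All sh76 libraries were higher, at 72.3, 61.7 and 69.5 CPM (67.8 ± 5.5). All sh78 libraries were lower, at 33.2, 25 and 37.9 CPM (32 ± 6.49). The log2 fold change was 0.55 with sh76 (SE 0.13, adjusted p = 0.0309) and -0.53 with sh78 (SE 0.13, adjusted p = 0.03974), levels of 147% and 69.4% of scramble. Their mean was 0.01 (adjusted p = 0.9715), with an approximate 95% interval of -0.23 to 0.25. The test of sh78 against sh76 gave -1.08 (SE 0.13, adjusted p = 0.0006606), with 47.3% of the sh76 level in sh78.

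Of these MUC1 results, the difference between the hairpins was called in all 18 alternatives. The rise with sh76 was called in 11 of 18. It was lost on the log2(FPKM + pseudocount) scale (adjusted p = 0.084 with a pseudocount of 1, 0.09191 with 0.1), and without scramble replicate 2 (0.1314) or 3 (0.1288) or sh76 replicate 1 (0.08127), 2 (0.06168) or 3 (0.1009). The fall with sh78 was called in 7 of 18. It was lost without scramble replicate 1 (0.104), 2 (0.0837) or 3 (0.07016), sh76 replicate 2 (0.05364) or 3 (0.05817), or sh78 replicate 1 (0.08358) or 2 (0.1036), in the fit of scramble and sh78 alone (0.06033), on both FPKM scales (0.08949 and 0.08762) and without the replicate 1 libraries (0.1379). No alternative turned the direction of either. By replicate number, MUC1 in sh78 against sh76 gave log2 ratios of -1.12, -1.30 and -0.88.

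**Figure D2:**
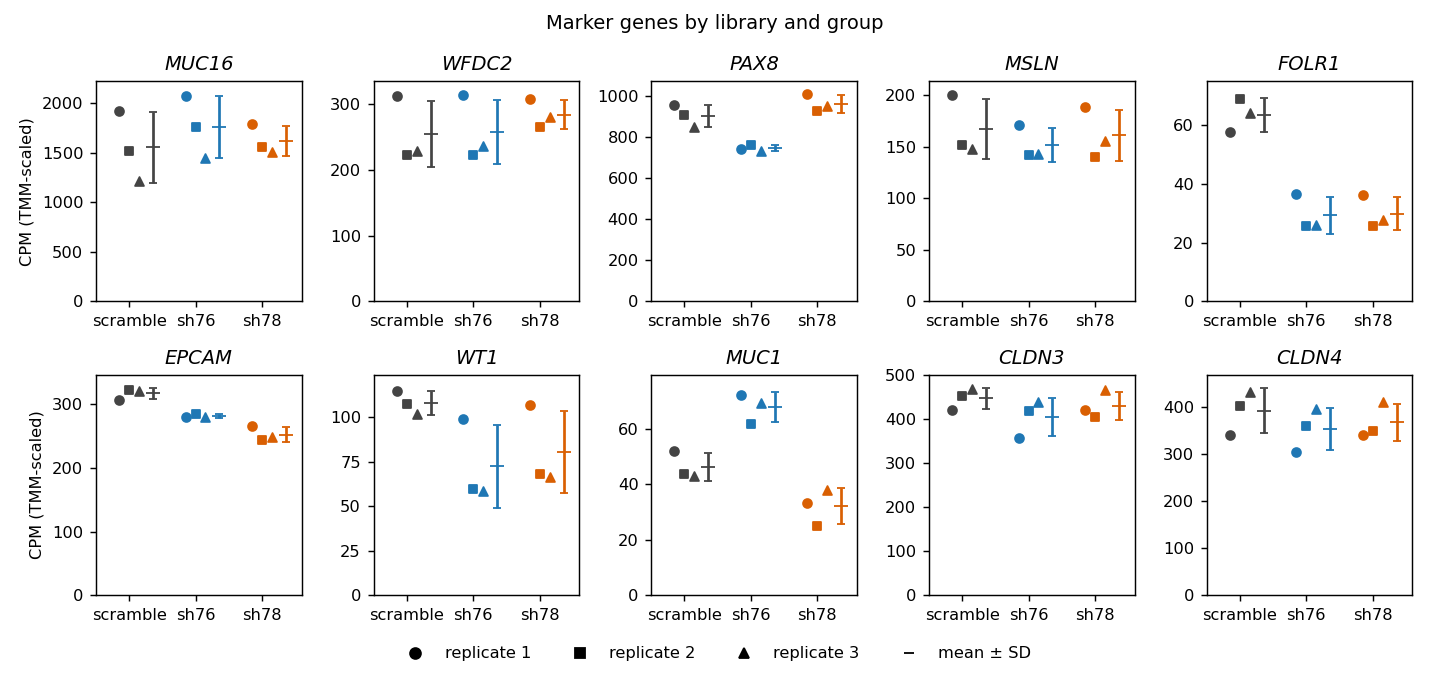
CPM of each of the 10 genes on an axis from 0, with 1 marker shape per replicate number, and the mean and SD of 3 libraries beside each group. FOLR1 is lower in both knockdown groups, MUC1 is high with sh76 and low with sh78, and PAX8 is low with sh76.

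The remaining lineage factor, WT1, was split by replicate number within the knockdown groups. WT1 (ENSG00000184937, chromosome 11, 32387775 to 32435630, minus strand) is a zinc-finger factor kept in serous carcinoma. It was at 115, 108 and 102 CPM in scramble (108 ± 6.57, SD, n = 3), at 99.2, 59.7 and 58.4 CPM with sh76 (72.4 ± 23.2), and at 107, 68.2 and 66.3 CPM with sh78 (80.6 ± 23.1). In each knockdown group replicates 2 and 3 were low and replicate 1 lay near the scramble level. The sh76 libraries were all below scramble, and sh78 replicate 1 overlapped it. WT1 was not called, with log2 fold changes of -0.58 (adjusted p = 0.284) and -0.42 (adjusted p = 0.4599) and an interval for sh78 of -0.997 to 0.16.

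Without the 3 replicate 1 libraries, WT1 was called with sh76 (-0.83, adjusted p = 5.635e-06), with sh78 (-0.65, adjusted p = 8.249e-05) and for the mean of both (-0.74, adjusted p = 2.594e-06). This alternative was chosen after seeing that replicate 1 differed, and it leaves 2 libraries per group. Leaving out sh76 replicate 1 alone was enough for the mean to be called (-0.65, adjusted p = 0.04972). With the replicate block the adjusted p was 0.0573 for sh76. The antisense gene WT1-AS shares 113 of the 4113 exonic bases of WT1 and had 210 to 363 counts per library, beside at least 991 for WT1. FOLR1 and WT1 both lay below every scramble library in replicates 2 and 3 of each knockdown group. In both genes replicate 1 was the highest library of each knockdown group. Unlike in WT1, the replicate 1 knockdown libraries of FOLR1 stayed well below the scramble level. Within scramble, replicate 1 was the lowest library for FOLR1 and the highest for WT1. Over the 9 libraries the log2 CPM of FOLR1 and WT1 had a Pearson r of 0.85, a description of libraries that share groups and replicate numbers.

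The serum markers MUC16 and WFDC2 and the MUC16-binding antigen MSLN overlapped between all groups and were not called. MUC16 (ENSG00000181143, chromosome 19, 8848844 to 8981342, minus strand) was at 1925, 1523 and 1216 CPM in scramble (1555 ± 356, SD, n = 3). With sh76 it was at 2076, 1763 and 1448 CPM (1762 ± 314), and with sh78 at 1788, 1559 and 1512 CPM (1620 ± 148). All 3 MUC16 ranges overlapped, and replicate 1 was the highest library in each group. The log2 differences were 0.18 with sh76 (adjusted p = 0.6756, interval -0.23 to 0.59) and 0.06 with sh78 (adjusted p = 0.9177, interval -0.35 to 0.47). Each sh76 library exceeded the scramble library of its own number, by 0.11, 0.21 and 0.25, and with the replicate block MUC16 was called higher with sh76 (adjusted p = 0.049).

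WFDC2 (ENSG00000101443, chromosome 20, 45469706 to 45481532, plus strand), a secreted protein with a whey acidic protein fold, was at 313, 223 and 229 CPM in scramble (255 ± 50.6). The sh76 libraries matched these closely at 314, 223 and 237 CPM (258 ± 49). With sh78 WFDC2 was at 308, 265 and 280 CPM (284 ± 21.7), which overlapped the other groups through their replicate 1 libraries. The log2 differences were 0.016 (adjusted p = 0.9761) and 0.16 (adjusted p = 0.6938, interval -0.20 to 0.52). WFDC2 was called higher with sh78 with the replicate block (adjusted p = 0.01294), as it was against sh76 (adjusted p = 0.02765). Without the replicate 1 libraries it was also called with sh78 (0.26, adjusted p = 0.03342).

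MSLN (ENSG00000102854, chromosome 16, 760762 to 768865, plus strand) was at 200, 152 and 148 CPM in scramble (167 ± 29.1). It was at 171, 142 and 143 CPM with sh76 (152 ± 16.7) and at 188, 140 and 156 CPM with sh78 (161 ± 24.7). These ranges overlapped, and replicate 1 was again the highest in each group. The log2 differences were -0.14 (adjusted p = 0.6806, interval -0.45 to 0.17) and -0.05 (adjusted p = 0.9159, interval -0.36 to 0.26). With the replicate block MSLN was called lower with sh76 (adjusted p = 0.04247).

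CLDN3 and CLDN4 encode claudins, the proteins that seal tight junctions and that bind Clostridium perfringens enterotoxin. CLDN3 (ENSG00000165215, chromosome 7, 73768997 to 73770270, minus strand) and CLDN4 (ENSG00000189143, chromosome 7, 73799542 to 73832693, plus strand) are neighbours, with 29271 bases and 0 annotated genes between these spans. The CLDN4 window printed above lies inside the CLDN4 span and not in that gap. CLDN3 was at 421, 453 and 467 CPM in scramble (447 ± 23.5, SD, n = 3), at 356, 417 and 439 with sh76 (404 ± 43.3) and at 420, 404 and 465 with sh78 (430 ± 31.5). CLDN4 was at 340, 403 and 433 CPM in scramble (392 ± 47.4), at 305, 360 and 395 with sh76 (353 ± 45.4) and at 340, 350 and 411 with sh78 (367 ± 38.7). The groups overlapped for both genes, and replicate 1 of CLDN4 was the lowest library in every group.

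For CLDN3 the log2 difference was -0.15 with sh76 (adjusted p = 0.378, interval -0.32 to 0.03) and -0.06 with sh78 (adjusted p = 0.793). For CLDN4 it was -0.15 with sh76 (adjusted p = 0.5462, interval -0.39 to 0.10) and -0.09 with sh78 (adjusted p = 0.7465). In both genes every sh76 library was below the scramble library of its number. With the replicate block both were called lower with sh76 (adjusted p = 0.01312 for CLDN3 and 0.008477 for CLDN4), and CLDN4 was called lower for the mean of both hairpins (0.01483). Their levels followed each other over the 9 libraries, with a Pearson r of 0.93 for log2 CPM. MUC16 and CLDN4 ran in opposite directions (r = -0.92), as PAX8 and MUC1 did (r = -0.80). These values describe libraries that share replicate numbers and groups.

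Counted over the set, 3 of the 10 genes were called with sh76, where 3.58% of all tested genes were called. PAX8 and FOLR1 were lower (2.16% of all genes) and MUC1 was higher (1.43%). With sh78 it was also 3 of 10, FOLR1, EPCAM and MUC1, where the background was 4.41%, and all of them were lower (2.56% lower and 1.85% higher among all genes). FOLR1 alone was called lower with both hairpins, as were 0.881% of all genes. The mean of both hairpins called FOLR1 and EPCAM, both lower, against 4.04% of all genes and 2.55% lower. In sh78 against sh76, PAX8 was called higher and MUC1 lower, against 3.7% of all genes, 1.97% higher and 1.72% lower. At an unadjusted p under 0.05 the members' counts were 5, 3, 3 and 3 in the order of these 4 comparisons. No share of all genes was worked out at that threshold. These counts, and those of the gene lists at the same threshold, therefore have no background to be read against.

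Most of the remaining changes were small. The median log2 fold change of the 10 genes was -0.15 with sh76 and -0.08 with sh78, with 7 of 10 below 0 in each, where 48.55% and 48.72% of all genes lay below 0. Their median absolute change was 0.18 and 0.13, beside 0.15 and 0.15 for all genes. Without overlap in CPM, 5 members were separated from scramble with sh76 (PAX8, FOLR1, EPCAM and WT1 below and MUC1 above), where 22.5% of all genes were. With sh78 the separated members were FOLR1, EPCAM and MUC1, all below, beside 21.5% of all genes. Between the hairpins they were PAX8, EPCAM and MUC1, beside 21.8%.

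**Figure D3:**
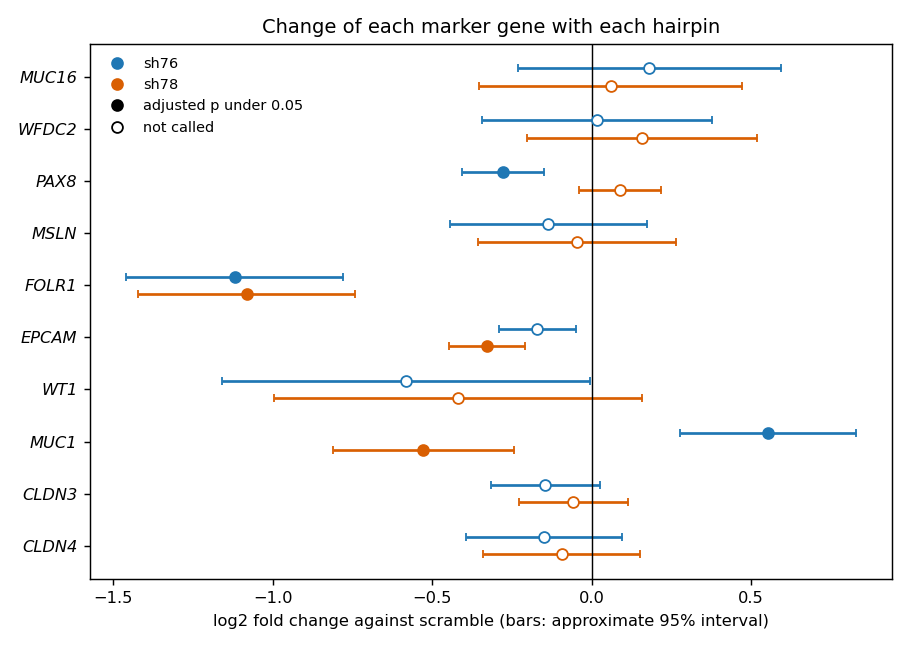
Log2 fold change against scramble with its approximate 95% interval for each gene and hairpin, filled where the adjusted p was under 0.05. FOLR1 lies near -1.1 with both hairpins, MUC1 lies on opposite sides of 0, and the intervals of MUC16, WFDC2, MSLN, CLDN3 and CLDN4 include 0.

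Replicate numbers moved with these genes. Replicate 1 was above replicates 2 and 3 in all 3 groups for MUC16, WFDC2, MSLN and WT1, 4 of the 10, where this held for 13.6% of all genes. It was below both in all groups for CLDN4, where this held for 15% of all genes. With the replicate block, 8 members were called with sh76 (20.4% of all genes), 4 with sh78 (19.9%), 3 for the mean (20.3%) and 4 in sh78 against sh76 (18.3%). Of the 8 with sh76, MUC16 and MUC1 were higher and PAX8, MSLN, FOLR1, EPCAM, CLDN3 and CLDN4 lower. In the 6 libraries of replicates 2 and 3, 4 members were called with sh76 (5.01% of the 17193 genes tested), 4 with sh78 (5.15%), 3 for the mean (5.34%) and 2 between the hairpins (3.34%). What set replicate 1 apart was not tested.

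**Figure D4:**
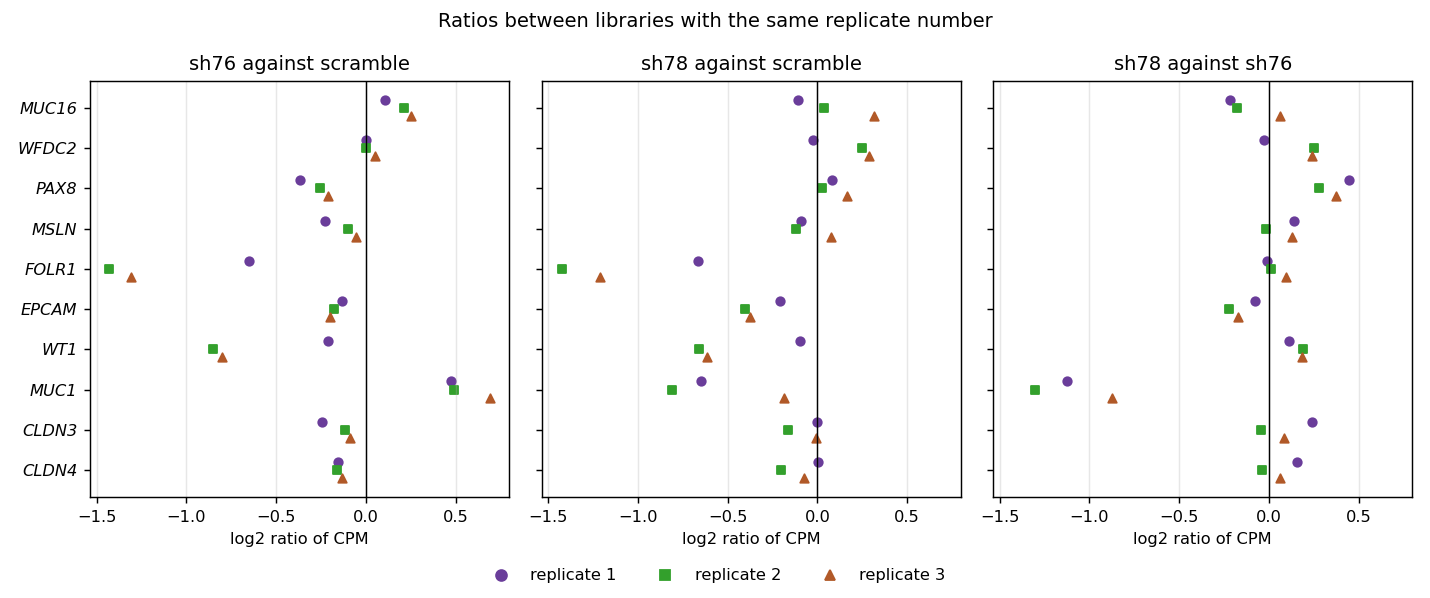
Log2 ratio of CPM between libraries of the same replicate number, 1 marker per number, in 3 panels for sh76 against scramble, sh78 against scramble and sh78 against sh76. The replicate 1 ratio of FOLR1 (-0.65 and -0.66) and WT1 (-0.21 and -0.10) lies nearest to 0 in the first 2 panels, and all 3 MUC1 ratios lie below 0 in the third.

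Genes of the same pathways were read from lists drawn up around the members, beside 3.58% of all tested genes called with sh76 and 4.41% with sh78. Among 12 Müllerian and serous lineage genes, of which 10 were tested, FOXJ1 fell with both hairpins. FOXJ1, the master factor of motile cilia and a marker of ciliated tubal cells, was at 27.3, 30.2 and 35 CPM in scramble (30.8 ± 3.89, SD, n = 3). It was at 8.33, 12.2 and 11.8 CPM with sh76 (10.8 ± 2.14) and at 14.3, 7.08 and 11.8 CPM with sh78 (11.1 ± 3.68). All knockdown libraries were below all scramble libraries, with log2 fold changes of -1.51 (adjusted p = 0.003704) and -1.47 (adjusted p = 0.003463), and both were called in all 18 alternatives. FOXJ1 shares 9 exonic bases with the antisense gene RNF157-AS1. The list's median log2 fold change was -0.06 with sh76 and 0.0052 with sh78.

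Among 26 other surface antigens and secreted markers of ovarian carcinoma, 21 were tested. With sh76, 1 was called higher (TPBG) and 3 lower (CLDN6, BCAM and LYPD1), and with sh78, 2 were higher (PRAME and CD24) and 3 lower (CLDN16, SLPI and BCAM). That is 4 and 5 of the 21, beside the shares over all genes given above. BCAM, the Lutheran adhesion protein that binds laminin, was the only one of these called with both by edgeR without the block. It was at 620, 529 and 512 CPM in scramble (554 ± 58.2, SD, n = 3), at 373, 296 and 298 with sh76 (322 ± 43.9) and at 448, 364 and 400 with sh78 (404 ± 42). The knockdown libraries all lay below scramble, by -0.78 with sh76 (adjusted p = 0.002431) and -0.46 with sh78 (adjusted p = 0.03316). The second call was lost without scramble replicate 1 (0.08532), 2 (0.082) or 3 (0.05504), or sh78 replicate 2 (0.1262) or 3 (0.1156), and on both FPKM scales. VTCN1 (higher) and APOA1 (lower) were called with both hairpins by DESeq2, with the replicate block and in replicates 2 and 3 only. L1CAM was called higher with both hairpins with the block and in replicates 2 and 3 only. Without the block edgeR called none of these genes with either hairpin, nor did limma on log2(FPKM + 1). The list's medians were -0.01 and -0.10.

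Of the 17 partners of EPCAM and the claudins (adhesion, junction and protease genes), 16 were tested. With sh76, CD44 (a hyaluronan receptor) and SPINT1 (an inhibitor of matriptase) were called higher, at log2 fold changes of 0.74 (adjusted p = 0.03044) and 0.39 (adjusted p = 0.003082). With sh78 only the junction protein gene OCLN was called by edgeR without the block, lower by -0.33 (adjusted p = 0.03837). CD44 with sh78 did not pass in that fit (adjusted p = 0.06145), nor by limma on log2(FPKM + 1). It was called lower with sh78 by DESeq2 (log2 -0.64, adjusted p = 0.003811). The replicate block (adjusted p = 2.012e-09) and the fit of replicates 2 and 3 only (0.01477) also called CD44 lower with sh78. CD44 and SPINT1 were also called in sh78 against sh76, at -1.38 (adjusted p = 0.001282) and -0.26 (adjusted p = 0.02749). The list's medians were -0.03 with sh76 and -0.12 with sh78.

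The counts of these 3 lists moved with the fit, in both directions. Blocking on the replicate number called 5 lineage genes with sh76 and 4 with sh78, 13 and 12 antigens, and 5 and 9 partners, beside 20.4% and 19.9% of all genes. DESeq2 called 2 and 2 lineage genes, 8 and 7 antigens, and 2 and 4 partners, beside 5.17% and 5.67% of all genes. Limma on log2(FPKM + 1) called 1 and 1 lineage genes, 4 and 3 antigens, and 1 and 0 partners, beside 2.06% and 2.73%, with 5 and 6 partners at an unadjusted p under 0.05. On that scale CD44 lost its call with sh76 (adjusted p = 0.06641), OCLN with sh78 (0.06763), PRAME with sh78 (0.07658) and SPINT1 in sh78 against sh76 (0.05861). In replicates 2 and 3 only, they were 4 and 2 lineage genes, 9 and 7 antigens, and 2 and 2 partners, beside 5.01% and 5.15%, and PRAME (0.05541) and OCLN (0.05492) lost their calls with sh78. FOXJ1 was called with both hairpins in each of these fits, and BCAM in each but limma, where it was not called with sh78.

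Most genes of the members' own families were below the filter on low counts. Of 16 other mucin genes only 3 were tested, and edgeR called 0 with either hairpin, as did DESeq2 and limma, with 2 and 3 genes at an unadjusted p under 0.05. Of 14 other genes of the whey acidic protein (WFDC) family 3 were tested, and SLPI, a secreted protease inhibitor, fell with sh78 (-0.61, adjusted p = 0.0001249). With sh76 its log2 fold change was -0.14 (adjusted p = 0.2633, and 0.01761 with the replicate block). The direct test of sh78 against sh76 gave -0.47 for SLPI (adjusted p = 0.0008926). Of 9 genes of folate uptake and use, the pathway of FOLR1, 6 were tested and edgeR, DESeq2 and limma each called 0 with either hairpin. At an unadjusted p under 0.05, edgeR gave 2 with sh76 and 1 with sh78. Of 10 regulators of epithelial identity 8 were tested and the same tools again called 0, with 1 and 0 at an unadjusted p under 0.05. The antisense neighbours PAX8-AS1 and WT1-AS were not called by edgeR, DESeq2 or limma with either hairpin, with 0 at an unadjusted p under 0.05. With the replicate block, where 19.9% to 20.4% of all genes were called, these lists gave 1 and 2 mucins, 1 and 2 WFDC genes, 3 and 1 folate genes, 2 and 1 epithelial regulators and 1 and 1 antisense genes for sh76 and sh78.

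The genes whose levels most resembled those of the called members were sought among 12888 protein-coding genes by Pearson r of log2 CPM over the 9 libraries. For FOLR1 they were RBM47 (an RNA-binding protein, r = 0.989) and CTSL (cathepsin L, r = 0.983). EPCAM was followed by KLK6 (a secreted serine protease, r = 0.975) and SESN2 (sestrin 2, r = 0.973). PAX8 had CHD3 (a chromatin remodeller) and MCTP1, both at 0.985, and MUC1 had LGALS8 (galectin 8, r = 0.973) and MUT (methylmalonyl-CoA mutase, r = 0.961). These are the highest of many values over few libraries that share their groups, and they are given as a description.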

How the data were processed

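For 9 OVCAR3 libraries, gene counts and FPKM values were deposited by the authors in 2 tables; per the labels' protocols, poly-T selected mRNA was used in non-directional libraries. HISAT2 2.0.5, featureCounts 1.5.0-p3 and hg38 are named per the submitters' processing notes, and their settings are not given in the sources used here. Deposited FPKM values divide the counts by gene length and 1 size per library. All 58735 identifiers matched GENCODE 29, whose GRCh38 coordinates are used. Promoters came from RefSeq (GRCh38.p14).

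Samples were grouped by title. Counts were tested with edgeR 4.0.16 (TMM, filterByExpr with a minimum count of 10 and minimum total of 15, robust quasi-likelihood fit, 1 coefficient per group, no block) in R 4.3.3, with Benjamini-Hochberg adjustment over 17023 genes. Intervals are the log2 fold change with its SE, taken as the fold change divided by the square root of F. The alternatives were DESeq2 1.42.0, limma 3.58.1 on log2(FPKM + 1) and log2(FPKM + 0.1), other scaling and filters, the replicate block and left-out libraries. The test was run on simulated counts drawn independently for each library. They held no effect shared by replicate number, so that run cannot show how the test behaves where libraries are paired.

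Same-numbered libraries deviated together from their group means (r 0.142 to 0.391 over 9 pairs, against -0.31 to 0.0639 over 18 other pairs). On the data alone the numbers were taken to pair the libraries, and the labels do not say what a number marks. The main fit does not use this pairing, while the replicate block does. Replicates differed beyond counting noise (chi-square per degree of freedom 4.9 to 11.07). The members and gene lists were chosen with earlier results of these data known. All 10 members and GPX3 were named; from each list the genes called with both hairpins in the same direction were named, and the other list genes and markers named here were chosen after their values were seen; for called members the 2 most similar genes were named. A result within the gene lists is not reported here.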

Additional observations from a re-analysis of the deposited data

Results flagged for a closer look

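The effects of the 2 hairpins on the same gene differed in 2 of the 10 genes, by the direct test of sh78 against sh76. For PAX8 that difference was 0.37 on the log2 scale (744 ± 14.1 CPM with sh76 and 960 ± 42.3 with sh78, SD, n = 3 each; edgeR adjusted p = 0.003857), with every sh78 library above every sh76 library. For MUC1 it was -1.08 (67.8 ± 5.5 CPM with sh76 and 32 ± 6.49 with sh78; edgeR adjusted p = 0.0006606), with every sh78 library below every sh76 library. Both were called with each of the 9 libraries left out in turn, at adjusted p-values of up to 0.0206 for PAX8 and 0.004209 for MUC1.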

How the results depend on the processing

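Of the 40 results for the 10 genes (4 comparisons each), 10 were called, 6 of them under every alternative run: FOLR1 in 3 comparisons, EPCAM with sh78, and PAX8 and MUC1 in sh78 against sh76. All 10 called results kept their sign, and 18 of the 30 uncalled ones were uncalled throughout. Signs turned only in uncalled results when 1 library was left out. Their ranges were, with sh76, -0.23 to 0.012 for MSLN and -0.15 to 0.19 for WFDC2; with sh78, -0.18 to 0.10 for MSLN and -0.093 to 0.24 for MUC16; and for the mean, -0.17 to 0.058 for MSLN, -0.0071 to 0.26 for WFDC2, -0.058 to 0.10 for MUC1 and -0.032 to 0.30 for MUC16. In sh78 against sh76 they were -0.24 to 0.013 for MUC16, -0.040 to 0.14 for CLDN4, -0.13 to 0.22 for FOLR1, -0.036 to 0.18 for MSLN, -0.10 to 0.45 for WT1 and -0.19 to 0.27 for FOXJ1, which was -0.34 in replicates 2 and 3 only, an alternative chosen after seeing the data. The cause was not tested. Leaving out 1 library gave 1 to 3 called members with sh76 (1 without scramble 2 or any sh76 library) and 1 to 3 for the mean (1 without scramble 2). With the replicate block (4 residual degrees of freedom, against 6), 8 members were called with sh76 and 4 in sh78 against sh76, and among all genes 3467 with sh76, 3388 with sh78, 3462 for the mean and 3117 between the hairpins. In the same order, all genes called were 610, 750, 687 and 629 as reported, 1149, 1212, 1181 and 1125 with no filter on low counts, 344, 456, 386 and 321 on log2(FPKM + 1), and 326, 457, 377 and 332 on log2(FPKM + 0.1). Leaving out 1 library, they were 237 to 655, 418 to 810, 299 to 726 and 273 to 780, lowest without sh76 replicate 2 in the first and last and without scramble replicate 2 in the others. A fit of only the compared groups gives no value for the mean. The 10 genes had between 364 and 36389 counts per library.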

Other observations

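Some genes outside the set also differed between the hairpins; they were picked after their values were seen and are given as values. The hyaluronan receptor gene CD44 was at 38.2 ± 7.55 CPM in scramble (SD, n = 3), 63.8 ± 8.87 with sh76 and 24.6 ± 4.67 with sh78, with the same order of groups as MUC1. The adhesion gene NECTIN4, an antibody-drug conjugate target, was at 26.5 ± 4.69, 41.3 ± 6.18 and 24.1 ± 5.47 CPM, and in sh78 against sh76 it was called lower (log2 -0.78, edgeR adjusted p = 0.02769). That NECTIN4 call was lost by limma on log2(FPKM + 1) (adjusted p = 0.06364) and by edgeR in replicates 2 and 3 only (0.127).

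The cancer-testis antigen gene PRAME had the order of PAX8, at 168 ± 18.9 CPM in scramble, 137 ± 11 with sh76 and 214 ± 5.59 with sh78. Its difference between the hairpins was 0.64 on the log2 scale (edgeR adjusted p = 0.0006671). CLDN6, a claudin of embryonic epithelium, was at 74.4 ± 5.92, 53.8 ± 4.27 and 72.1 ± 2.45 CPM, a difference between the hairpins of 0.42 (edgeR adjusted p = 0.009835).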
